A study of Mus musculus with 16 samples.

Results

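The hypothalamic response to a 30 h fast was measured in AgRP-/- male mice, which lack the gene for agouti-related peptide. It was read as the difference between 4 arrays of fasted and 4 arrays of ad libitum fed AgRP-/- mice, 8 of the 16 arrays of the series, selected by their titles. The other 8 arrays hold fed and fasted males with 1 intact copy of the gene (AgRP+/-), also 4 per state. All mice were males of a mixed strain background, and both genotypes carry the deletion on at least 1 allele, so the series has no wild-type group. Total RNA of the hypothalamus was hybridised to Illumina mouse bead arrays, which read each transcript through 1 or a few probes. Whether the arrays of a group came from separate animals is not in the labels, so each p-value refers to the variation among the arrays themselves, part or all of which could be technical.

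Of 25697 probes on the array, 13662 lay above the median of all values, 5.12 on the log2 scale, in at least 4 of the 16 arrays and were kept. Of the kept probes 12876 carried a gene symbol, and they covered 9530 genes. A total of 278 probes lay above the median in exactly 4 arrays, just inside this limit, and 390 in exactly 3, just outside it. Since the annotation names no probe Agrp, the genotype labels could not be checked on the deleted gene by name. The kept probe ILMN_2703427, which the annotation gives no symbol, separated the labelled genotypes completely. It read 4.52, 4.46, 4.47 and 4.57 on the fed and 4.50, 4.43, 4.62 and 4.44 on the fasted AgRP-/- arrays, all near the low end of the scale, and 7.68 to 11.24 on the 8 AgRP+/- arrays. The tissue label was checked on peptides of hypothalamic neurons. Pmch, the precursor of melanin-concentrating hormone, read 13.87, 13.63, 13.85 and 13.77 in fed and 14.002, 13.80, 13.98 and 13.71 in fasted AgRP-/- mice, in the order of replicates 1 to 4 that is used for all array values here. Oxt, the oxytocin precursor, read 13.28, 13.29, 13.05 and 13.01 in the fed and 12.43, 12.79, 12.78 and 12.81 in the fasted group. The precursors of orexin (Hcrt) and vasopressin (Avp) read at least 11.69 and 12.30 on these 8 arrays, where the highest value of any probe was 14.7.

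Agouti-related peptide is made by neurons of the arcuate nucleus that also make neuropeptide Y, and it promotes feeding by blocking melanocortin receptors. In fasting, low leptin and insulin and high ghrelin raise the activity of these neurons, glucocorticoids from the adrenal rise, and the body turns from glucose to fat as its main fuel. Cells of the brain's vessels and glia carry glucocorticoid and fatty acid sensing receptors, so the hypothalamus holds targets of these signals outside its feeding neurons as well.

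Fasting changed 53 kept probes in AgRP-/- mice at an adjusted p under 0.05, 37 higher and 16 lower, which is 0.388% of the probes tested. These probes belonged to 45 named genes, 30 higher and 15 lower. The changes were mostly moderate: 6 genes rose and 2 fell by more than 1 on the log2 scale, which is a doubling, 29 changed by 0.5 to 1 and 8 by less than 0.5. The median size over the 45 genes was 0.71, whereas 1 probe per gene over all 9530 genes had a median change of -0.0065, with the 5th and 95th percentiles at -0.31 and 0.32. For every one of the 45 genes the 4 fasted arrays lay entirely above or entirely below the 4 fed arrays, which was also true of 8.23% of all kept probes. By 1 probe per gene, the fasted arrays lay entirely above the fed arrays for 4.1% of genes and entirely below them for 4.43%. An unadjusted p under 0.05 was reached by 1780 kept probes, including the 53.

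**Figure D1:**
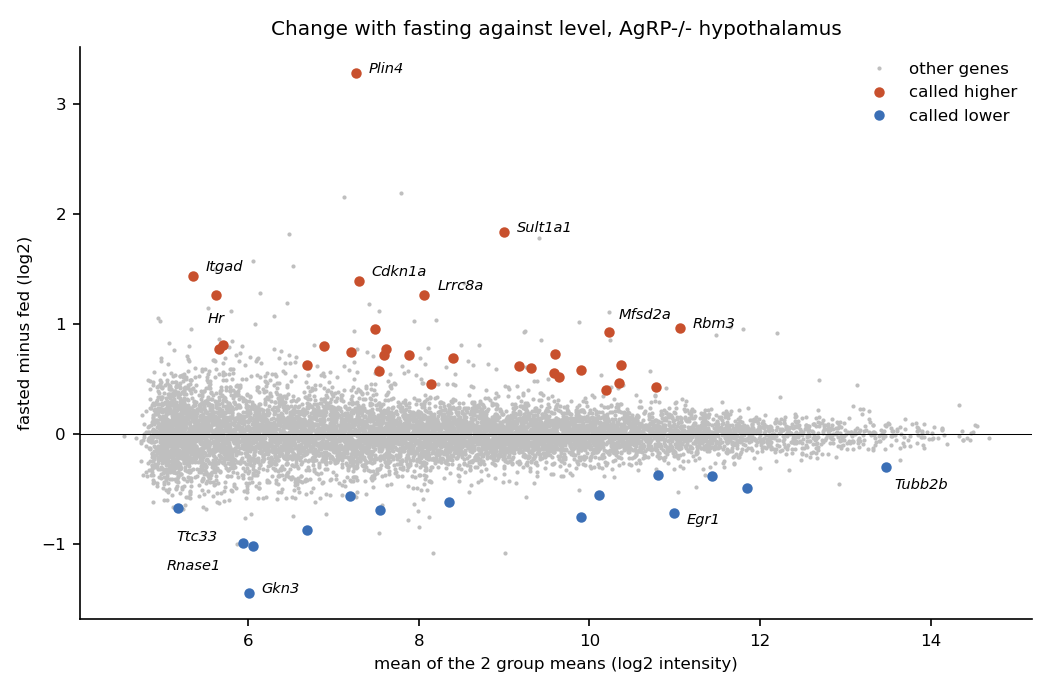
Change with fasting in AgRP-/- mice (fasted minus fed, log2) against the mean of the fed and fasted group means (log2), with 1 grey point per gene at its brightest kept probe. Coloured points are the 45 called genes, which lie at least 0.306 from 0, with Plin4 at 3.28 as the farthest.

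Bright probes carried smaller errors than dim ones. With the kept probes put into 4 equal bins by brightness, the median standard error of the change fell from 0.177 in the dimmest bin to 0.0795 in the brightest, and the number of called probes rose from 7 to 21. A change of the smallest size called here, 0.306, would therefore have been hard to detect in a dim probe.

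Markers of neighbouring tissue differed between arrays, and most midbrain markers read higher on the fasted arrays. The midbrain markers En1, Foxa2 and Pitx3 did not pass the filter. The mean of Slc6a3, Chrna6 and Th, transcripts of midbrain dopamine neurons, read 7.83, 6.53, 7.89 and 7.98 on the fed AgRP-/- arrays. On the fasted AgRP-/- arrays it read 8.94, 8.78, 8.50 and 9.06, so the groups did not overlap. The arrays do not show which cells of the dissected tissue these transcripts came from. Of the 12 kept midbrain markers 10 lay above 0, with a median change of 0.54, and none was called with limma although 8 had an unadjusted p under 0.05, which 13.5% of all genes had. With that mean as a covariate only Plin4 kept its call (3.00, SE 0.37, adjusted p = 0.002). All 45 genes then kept their direction and an unadjusted p under 0.05, their changes were 0.632 to 1.20 times the original (median 0.888), and the standard errors grew 1.38-fold at the median. A measure that can follow RNA length, the dimmest minus the brightest Actb probe kept, read -5.16, -5.19, -6.39 and -4.68 in the fed and -4.03, -5.02, -4.60 and -4.71 in the fasted group. As a covariate it left 36 of the 45 genes called. Gh, a pituitary transcript, read 6.14 on fed array 1 and at most 4.69 on the other fed arrays. The part of dissection and RNA quality in the changes below was not tested beyond these fits, and in bulk tissue fewer cells of a type and less RNA per cell cannot be told apart.

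**Figure D2:**
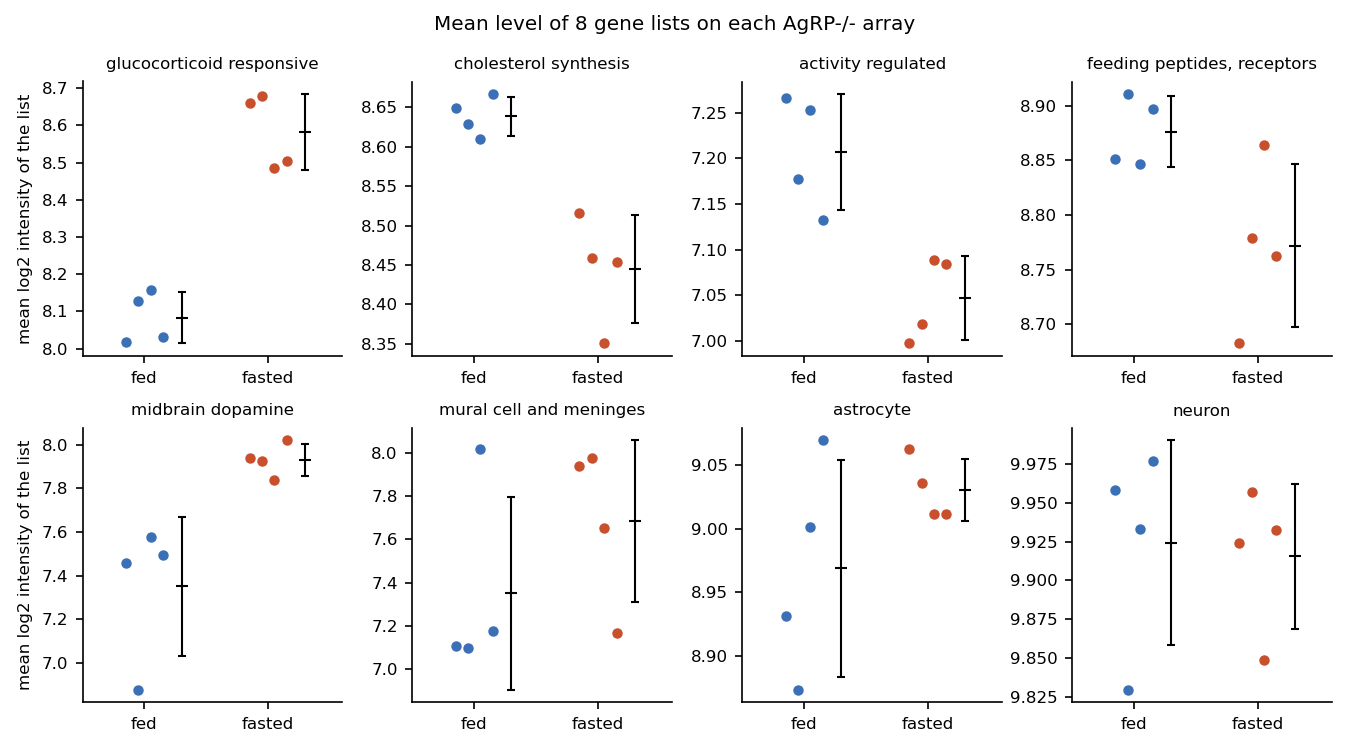
Mean log2 level of the kept members of 8 gene lists on each AgRP-/- array, fed and fasted, with a black bar for the group mean and SD (n = 4). The glucocorticoid responsive and midbrain dopamine lists separate the fed from the fasted arrays (8.02 to 8.16 against 8.49 to 8.68, and 6.88 to 7.58 against 7.84 to 8.02). So do the cholesterol synthesis (8.61 to 8.67 against 8.35 to 8.52) and activity regulated lists (7.13 to 7.27 against 6.997 to 7.09). The mural cell and meninges list does not (7.10 to 8.02 against 7.17 to 7.98).

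Glucocorticoid responsive genes held the largest rise among the called genes. Of 27 kept members of this list 6 rose and 0 fell, where 0.273% of all genes were called higher, and the list median was 0.40 against -0.0065 over all genes. This and the other lists were chosen with earlier results of these data known, so such shares do not measure an enrichment. The list mean per array read 8.02 to 8.16 in fed and 8.49 to 8.68 in fasted mice. Plin4, a coat protein of lipid droplets, read 5.36, 5.90, 5.96 and 5.28 on the fed arrays and 8.88, 9.12, 8.71 and 8.91 on the fasted arrays. Every fasted array stood far above every fed array, with a gap of 2.74 between the nearest of the groups. Plin4 rose by 3.28 (SE 0.27, adjusted p = 2.82e-06), or 9.7-fold. Sult1a1, a sulfotransferase of phenols and catecholamines, read 7.54, 7.94, 8.82 and 8.01 in the fed and 9.96, 10.47, 9.72 and 9.50 in the fasted group. Fed array 3 was the highest of the fed arrays but still lay below the lowest fasted array. The rise of Sult1a1 was 1.84 (SE 0.34, adjusted p = 0.0162), and it lost its call without fed array 1, 2 or 4 or fasted array 1 or 2 (changes 1.65 to 2.08, adjusted p up to 0.0804).

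Cdkn1a, an inhibitor of cyclin-dependent kinases that halts the cell cycle, read 6.49, 6.62, 6.54 and 6.75 in the fed and 7.90, 8.21, 7.72 and 8.12 in the fasted group. Its fasted arrays all stood above its fed arrays, and it rose by 1.39 (SE 0.26, adjusted p = 0.0162), 2.61-fold. Of its other 2 kept probes, 1 was called at 1.11 (adjusted p = 0.0287) and the other gave 0.77 (adjusted p = 0.141). Without fed array 1 or fasted array 2 or 4 the call of Cdkn1a was lost (adjusted p up to 0.0724). Angptl4, a secreted inhibitor of lipoprotein lipase that fatty acids and glucocorticoids induce, read 7.15, 7.18, 6.75 and 6.96 on the fed arrays and 8.44, 8.09, 7.75 and 7.58 on the fasted arrays. The groups were apart and Angptl4 rose by 0.95 (SE 0.16, adjusted p = 0.00773), a call that stood with any 1 AgRP-/- array left out. Mertk, a receptor kinase for the uptake of dying cells by phagocytes, read 7.25, 7.13, 7.19 and 7.34 in the fed and 8.11, 8.07, 7.76 and 7.82 in the fasted group and rose by 0.71 (SE 0.15, adjusted p = 0.0457). Pnpla2, the lipase that starts the breakdown of stored triglyceride, read 9.24, 9.44, 9.47 and 9.37 in the fed and 9.92, 9.99, 9.80 and 9.89 in the fasted group and rose by 0.52 (SE 0.11, adjusted p = 0.0366). The fed and fasted arrays of Mertk and Pnpla2 did not overlap, and both calls were lost whichever of the 8 arrays was left out (adjusted p up to 0.148 and 0.13).

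The other 21 kept members of the list were not called, 8 of them at an unadjusted p under 0.05 in the same direction as the called ones and 1 in the other. Among all genes 13.5% had such a p in either direction. Sgk1, a kinase induced by glucocorticoids, read 11.03, 11.45, 11.03 and 11.16 on the fed arrays and 12.37, 12.01, 11.82 and 12.33 on the fasted arrays. Its groups did not overlap, but with a change of 0.97 (SE 0.26, adjusted p = 0.104) it was not called. Fkbp5, a cochaperone of the glucocorticoid receptor, read 6.35, 6.94, 6.53 and 6.49 in the fed and 7.05, 7.10, 6.95 and 6.82 in the fasted group, with overlapping groups and a change of 0.40 (SE 0.16, adjusted p = 0.288). Mt1, a metallothionein, had a change of 0.26 (SE 0.07, adjusted p = 0.0813). The 7 kept genes of corticosteroid and CRH receptors and their partners gave no limma call, with changes from -0.22 to 0.23. An unadjusted p under 0.05 was reached by 1 of them, against 13.5% of all genes.

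**Figure D3:**
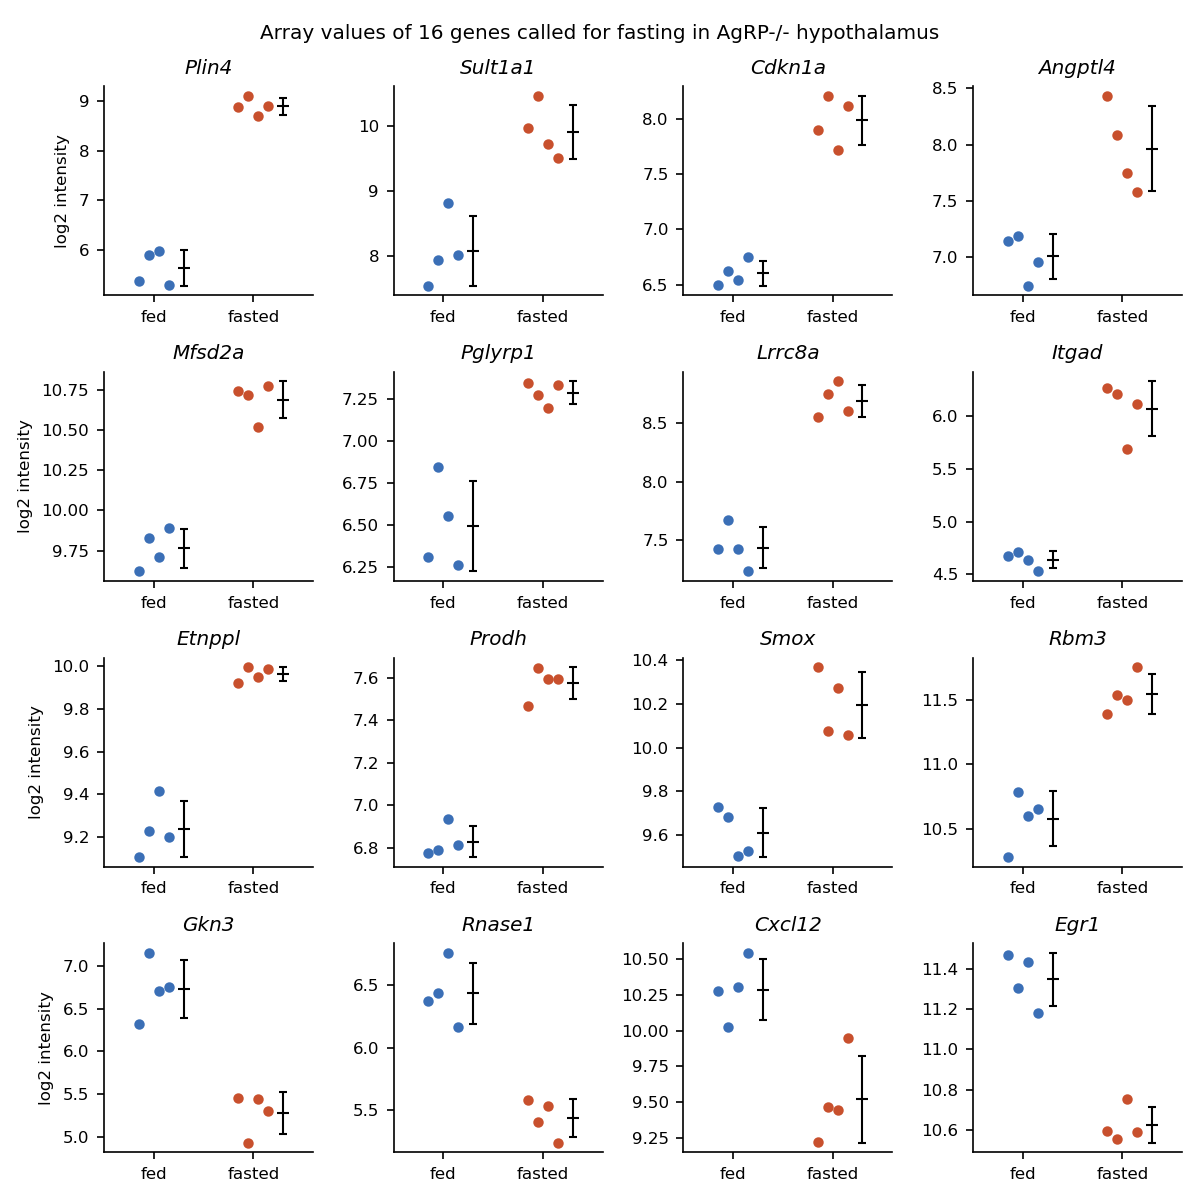
Log2 level of 16 genes on the 4 fed and 4 fasted AgRP-/- arrays, with 1 point per array and a black bar for the group mean and SD (n = 4). All 16 genes were called, and in each the fed and fasted points do not overlap.

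The promoters of 3 of the genes with rises above 1 are shown, because regions such as these are where the glucocorticoid receptor and other inducible factors can bind. Sequences are from RefSeq, build GRCm38.p6, 250 bases before the annotated start, written 5′ to 3′ along the gene, with matches to the searched motifs in capitals. They cover chr17:56109783-56110032 on the minus strand for Plin4, chr7:126676419-126676668 on the minus strand for Sult1a1 and chr2:30237519-30237768 on the plus strand for Lrrc8a.
Plin4: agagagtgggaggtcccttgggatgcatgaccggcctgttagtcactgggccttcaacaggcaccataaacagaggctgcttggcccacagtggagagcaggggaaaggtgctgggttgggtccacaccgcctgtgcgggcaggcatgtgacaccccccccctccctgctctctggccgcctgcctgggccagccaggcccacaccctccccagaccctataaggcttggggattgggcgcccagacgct
Sult1a1: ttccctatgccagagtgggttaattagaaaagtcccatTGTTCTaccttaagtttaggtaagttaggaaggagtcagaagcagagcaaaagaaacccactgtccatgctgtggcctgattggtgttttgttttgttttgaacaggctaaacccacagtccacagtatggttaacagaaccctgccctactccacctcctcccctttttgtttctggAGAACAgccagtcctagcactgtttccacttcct
Lrrc8a: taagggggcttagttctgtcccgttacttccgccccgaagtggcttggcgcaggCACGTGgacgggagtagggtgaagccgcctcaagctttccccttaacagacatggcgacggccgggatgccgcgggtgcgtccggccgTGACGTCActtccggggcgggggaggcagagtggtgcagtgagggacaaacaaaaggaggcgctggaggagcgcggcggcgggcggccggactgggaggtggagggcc
The Sult1a1 window held the hexamer AGAACA, the repeat unit of the glucocorticoid receptor element, at -34 to -29 and its complement at -212 to -207. The Lrrc8a window held the E-box CACGTG at -196 to -191 and the cyclic AMP response element TGACGTCA at -108 to -101. The Plin4 window held none of the 6 motifs searched, which says only that these letters are not in it.

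Promoters of 33 of the 45 genes were found in the RefSeq table, 5 of them with several starts, and 12 genes had none there. Over 250 bases before and 50 after the start, on both strands, AGAACA was present for 4 of the 33 genes (12.1%) against 21.3% of all genes in the table. CACGTG was present for 4 (12.1%) against 8.09%, and TGACGTCA for 2 (6.06%) against 2.03%. TATAAA was present for 3 (9.09%) against 15.7%. The forkhead motif GTAAACA was present for 0 against 4.05%, and the full palindrome of the glucocorticoid receptor element for 0 against 0.074%. These are descriptions of windows, and no site was measured.

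Of the genes of lipid droplets and of fatty acid use only Plin4, Pnpla2 and Angptl4 were called. Of 17 kept perilipin and lipid droplet genes Plin4 and Pnpla2 rose, where 0.273% of all genes were called higher, and the list median was 0.02. Plin2, the droplet coat protein found in most tissues, showed a difference of 0.43 (SE 0.20, adjusted p = 0.377), and Lipe, hormone-sensitive lipase, of -0.35 (SE 0.17, adjusted p = 0.382), neither called. Of 17 kept genes for oxidising fatty acids and using ketones Angptl4 rose, against the same 0.273%, with a list median of 0.12. Pdk4, the kinase that shuts pyruvate dehydrogenase, read 6.26, 6.17, 6.24 and 6.01 on the fed arrays and 7.17, 6.86, 7.02 and 6.21 on the fasted arrays, with overlapping groups and a change of 0.64 (SE 0.19, adjusted p = 0.131). Acat1, an enzyme of ketone body use, showed a difference of 0.68 (SE 0.18, adjusted p = 0.0997) and Ppargc1a, a coactivator of mitochondrial genes, of 0.50 (SE 0.13, adjusted p = 0.0988); neither was called.

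Genes of the vessel wall changed in both directions. Of 26 kept members 1 rose and 3 fell, where 0.42% of all genes were called, and the list median was 0.03. This list, too, was chosen with earlier results of these data known. Gkn3, a gastrokine family gene that marks arterial endothelium in the mouse brain, read 6.32, 7.15, 6.70 and 6.75 on the fed arrays and 5.45, 4.93, 5.45 and 5.30 on the fasted arrays. Its highest fasted array lay below its lowest fed array, and it fell by 1.45 (SE 0.23, adjusted p = 0.00424), and was 2.73-fold lower in fasted mice. Rnase1, a secreted ribonuclease of endothelium, read 6.37, 6.44, 6.76 and 6.17 in the fed and 5.58, 5.41, 5.53 and 5.24 in the fasted group. All fasted arrays were lower, and Rnase1 fell by 0.99 (SE 0.15, adjusted p = 0.00338). Cxcl12, a chemokine of vessels and meninges, read 10.27, 10.02, 10.30 and 10.54 in the fed and 9.23, 9.47, 9.45 and 9.95 in the fasted group with its brightest probe and fell by 0.76 (SE 0.12, adjusted p = 0.00536). The other 2 kept probes of Cxcl12 gave changes of 0.37 and 0.16, so the fall belongs to 1 of 3 probes. The calls of Gkn3, Rnase1 and Cxcl12 stood with any 1 AgRP-/- array left out. Pglyrp1, a peptidoglycan recognition protein enriched in brain endothelium, read 6.31, 6.85, 6.55 and 6.27 on the fed arrays and 7.34, 7.27, 7.20 and 7.34 on the fasted arrays. It rose by 0.79 (SE 0.17, adjusted p = 0.0415), with a call lost in 7 of the 8 fits that left out 1 array (adjusted p up to 0.132).

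The brain's endothelium also carries transporters between blood and brain. Of 12 kept transporters of the blood-brain barrier 1 rose, where 0.273% of all genes were called higher, and the list median was 0.14. Mfsd2a, the transporter of lysophosphatidylcholine that brings docosahexaenoic acid into the brain, read 9.62, 9.83, 9.71 and 9.89 on the fed arrays and 10.74, 10.72, 10.52 and 10.77 on the fasted arrays. The fasted arrays stood above the fed arrays without overlap, and Mfsd2a rose by 0.92 (SE 0.14, adjusted p = 0.00341), 1.9-fold. Slc38a5, a glutamine transporter, read 8.25, 8.17, 8.50 and 8.15 in the fed and 7.63, 7.63, 7.84 and 7.39 in the fasted group; its groups did not overlap, but the change of -0.64 (SE 0.16, adjusted p = 0.0787) was not called. Tfrc, the transferrin receptor, showed a difference of 0.35 (SE 0.09, adjusted p = 0.0836) and Slc2a1, the barrier's glucose transporter, of 0.29 (SE 0.11, adjusted p = 0.25), neither called. Ednrb, the endothelin receptor found on astrocytes and vessels, read 12.12, 12.002, 12.15 and 12.13 on the fed arrays and 11.65, 11.61, 11.58 and 11.56 on the fasted arrays and fell by 0.50 (SE 0.10, adjusted p = 0.0338). That call was lost whichever AgRP-/- array was left out (adjusted p up to 0.0959). Dimmer kept probes of Ednrb gave -0.69 (adjusted p = 0.0344), called, and -0.14 (adjusted p = 0.856), not called. Of the 8 kept markers of endothelium 7 lay above 0, with a median change of 0.10. Pglyrp1 alone was called among them, against 0.42% of all genes. The mean of these markers per array read 8.58 to 8.74 in fed and 8.77 to 8.86 in fasted AgRP-/- mice, which do not overlap. The part of endothelial content in the changes of vessel and transporter genes was not tested. Marker levels of mural cells and meninges were highest on fed array 3 (8.02, against at most 7.18 on the other fed arrays), and the part of this array's tissue in the vessel wall changes was not tested beyond leaving it out.

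Etnppl, Prodh, Smox and Cyp2d22 are enzyme genes that were called higher and are described together here without a list behind them. Etnppl, an astrocyte enzyme that breaks down phosphoethanolamine, read 9.11, 9.23, 9.42 and 9.20 on the fed arrays and 9.92, 9.99, 9.95 and 9.98 on the fasted arrays. The spread within each group was small against the gap, and Etnppl rose by 0.72 (SE 0.08, adjusted p = 0.000204), 1.65-fold. Prodh, the mitochondrial enzyme that starts proline breakdown, read 6.78, 6.79, 6.94 and 6.81 in the fed and 7.47, 7.64, 7.60 and 7.59 in the fasted group and rose by 0.75 (SE 0.10, adjusted p = 0.00151). Smox, spermine oxidase, read 9.73, 9.68, 9.51 and 9.53 in the fed and 10.37, 10.08, 10.27 and 10.06 in the fasted group and rose by 0.58 (SE 0.09, adjusted p = 0.00338), with 4 of its 5 kept probes called. The calls of Etnppl, Prodh and Smox stood with any 1 AgRP-/- array left out. Cyp2d22, a cytochrome P450 of the brain and liver, read 8.79, 8.67, 9.12 and 8.91 on the fed arrays and 9.40, 9.52, 9.57 and 9.45 on the fasted arrays and rose by 0.62 (SE 0.10, adjusted p = 0.00503).

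Of 18 kept genes of serine synthesis and the amino acid response Psat1 and Cbs rose, where 0.273% of all genes were called higher, and the list median was 0.05. Psat1, a transaminase of serine synthesis, read 10.25, 10.14, 10.17 and 9.88 on the fed arrays and 10.46, 10.59, 10.56 and 10.67 on the fasted arrays. The groups lay close but apart, and Psat1 rose by 0.46 (SE 0.09, adjusted p = 0.0275). Cbs, which joins homocysteine and serine on the way to cysteine, read 7.49, 7.07, 7.15 and 7.27 in the fed and 7.72, 7.96, 7.84 and 7.75 in the fasted group and rose by 0.57 (SE 0.12, adjusted p = 0.0413). Leaving out 1 array removed the call of Psat1 in 5 of 8 fits and that of Cbs in 7 of 8 (adjusted p up to 0.0959 and 0.148). Ddit3 and Atf5, transcription factors of the integrated stress response, showed a difference of 0.37 (SE 0.13, adjusted p = 0.215) and -0.22 (SE 0.11, adjusted p = 0.384), neither called.

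Another 6 called genes, for secreted or cell surface proteins, were grouped after their calls were seen and do not form a list. Htra1, a secreted serine protease, read 10.03, 10.02, 10.03 and 10.15 on the fed arrays and 10.83, 10.72, 10.62 and 10.56 on the fasted arrays. The first 3 fed arrays lay close together, fed array 4 a little above them, and all below the fasted arrays; Htra1 rose by 0.63 (SE 0.08, adjusted p = 0.00145). Sdc4, a heparan sulfate proteoglycan of the cell surface, read 9.07, 9.16, 8.82 and 9.002 in the fed and 9.72, 9.63, 9.59 and 9.51 in the fasted group and rose by 0.60 (SE 0.09, adjusted p = 0.00192). Timp4, an inhibitor of matrix metalloproteinases, read 9.42, 9.15, 9.45 and 9.20 in the fed and 9.81, 9.99, 9.84 and 9.78 in the fasted group and rose by 0.55 (SE 0.11, adjusted p = 0.0271). All fasted arrays of both genes lay above their fed arrays. Agt, angiotensinogen, the precursor of angiotensin, read 10.57, 10.61, 10.54 and 10.55 in the fed and 10.80, 11.02, 11.20 and 10.93 in the fasted group and rose by 0.42 (SE 0.09, adjusted p = 0.0366). Dkk3, a secreted protein of the Dickkopf family, read 10.13, 9.90, 10.03 and 9.92 in the fed and 10.24, 10.46, 10.53 and 10.33 in the fasted group and rose by 0.39 (SE 0.08, adjusted p = 0.0244). The other kept probe of Dkk3 gave 0.19 with overlapping groups and was not called (adjusted p = 0.54). Heph, a ferroxidase that helps export iron, read 7.63, 7.32, 7.56 and 7.57 in the fed and 8.05, 8.33, 8.45 and 8.12 in the fasted group and rose by 0.72 (SE 0.13, adjusted p = 0.0138). The calls of Htra1 and Sdc4 stood with any 1 array left out, whereas those of Timp4, Agt, Dkk3 and Heph were lost in 5, 7, 4 and 3 of the 8 fits. Among 11 kept astrocyte markers none was called with limma, 2 had an unadjusted p under 0.05, against 13.5% of all genes, and the median change was 0.05. Gfap, the intermediate filament of astrocytes, showed a difference of 0.19 (SE 0.15, adjusted p = 0.634).

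Lrrc8a, the subunit that every volume-regulated anion channel needs, read 7.42, 7.67, 7.42 and 7.23 on the fed arrays and 8.56, 8.75, 8.86 and 8.61 on the fasted arrays. The fasted arrays stood above the fed arrays by a wide margin and Lrrc8a rose by 1.26 (SE 0.16, adjusted p = 0.000965), 2.39-fold. Its other kept probe gave 0.30 (adjusted p = 0.374). Of 8 kept genes of the channel and of cell volume Lrrc8a alone was called, against 0.42% of all genes, and the subunits Lrrc8d and Lrrc8b showed a difference of 0.09 (SE 0.08, adjusted p = 0.673) and -0.14 (SE 0.19, adjusted p = 0.812). Itgad, an integrin alpha chain of leukocytes, read 4.68, 4.71, 4.64 and 4.53 in the fed and 6.27, 6.21, 5.69 and 6.12 in the fasted group and rose by 1.43 (SE 0.25, adjusted p = 0.0091) with its groups apart. All fed values of Itgad lay below 5.12, the limit of the filter, which the probe passed on the fasted arrays. Signal there could not be separated from background, so the size of the rise depends on that floor. The other 2 kept probes of Itgad gave 0.05 and 0.85, not called. Among 5 kept leukocyte integrins and their ligands Itgad alone was called, against 0.42% of all genes, and Icam2 showed a difference of -0.47 (SE 0.12, adjusted p = 0.0988). Of 10 kept microglial markers none was called with limma and 2 had an unadjusted p under 0.05, against 13.5% of all genes, with a median of -0.01. Dok3, an adaptor that restrains signalling in immune cells, read 7.94, 7.92, 7.84 and 7.85 on the fed arrays and 7.19, 7.06, 7.38 and 7.14 on the fasted arrays and fell by 0.70 (SE 0.14, adjusted p = 0.0287), losing its call in 7 of the 8 fits without 1 array.

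Trhr and Hr, genes of the thyroid axis, moved in opposite directions. Trhr, the receptor of thyrotropin-releasing hormone, read 7.52, 7.56, 7.42 and 7.38 on the fed arrays and 6.76, 6.87, 7.08 and 6.92 on the fasted arrays and fell by 0.56 (SE 0.11, adjusted p = 0.0287), and by brightest probes it was the 1 called gene of 10 kept on this list, against 0.42% of all genes, whose median was -0.08. Trh, the peptide itself, read 11.83, 11.90, 11.71 and 11.87 in the fed and 11.37, 11.66, 11.64 and 11.56 in the fasted group; all fasted arrays were lower, but the change of -0.27 (SE 0.10, adjusted p = 0.243) was not called. Hr, a corepressor that thyroid hormone induces in the brain, read 5.09, 5.05, 5.18 and 4.66 in the fed and 6.10, 6.32, 6.25 and 6.34 in the fasted group with its dimmer probe and rose by 1.26 (SE 0.25, adjusted p = 0.0244). The fed values 5.09, 5.05 and 4.66 of this probe lay below 5.12, the limit of the filter, so the size of its rise depends on that floor. The brighter probe of Hr gave 1.02 and was not called (adjusted p = 0.0531). Fitted without the AgRP+/- arrays, that brighter probe was called (adjusted p = 3.37e-05). The calls of Trhr and Hr were lost in 7 and 6 of the 8 fits without 1 array (adjusted p up to 0.105 and 0.0959).

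Egr1 and Egr4, transcription factors that neurons induce with activity, fell. Of 23 kept activity regulated genes 2 fell and 0 rose, where 0.147% of all genes were called lower, and 17 lay below 0 with a median of -0.09. The list mean per array was 7.13 to 7.27 in fed and 6.997 to 7.09 in fasted mice, which do not overlap. Means of lists without a call could also be apart, such as FoxO and insulin signalling (6.99 to 7.08 against 7.13 to 7.29). Egr1, an immediate early zinc finger factor, read 11.47, 11.31, 11.44 and 11.18 on the fed arrays and 10.60, 10.56, 10.76 and 10.59 on the fasted arrays. All fasted arrays lay below all fed arrays, and Egr1 fell by 0.72 (SE 0.12, adjusted p = 0.00598). With the midbrain dopamine mean as a covariate the change of Egr1 was -0.47 (SE 0.14, adjusted p = 0.362). Egr4, of the same family, read 6.97, 7.29, 7.25 and 6.99 in the fed and 6.11, 5.95, 6.62 and 6.30 in the fasted group and fell by 0.88 (SE 0.19, adjusted p = 0.0413); its call was lost in 7 of the 8 fits without 1 array (adjusted p up to 0.148). Fos, the widely used marker of recent neuronal firing, read 8.75, 8.27, 8.79 and 7.90 on the fed arrays and 7.11, 7.59, 7.90 and 7.69 on the fasted arrays. Its groups overlapped at 1 array each, and the difference of -0.85 (SE 0.20, adjusted p = 0.0652) was not called. Homer1, a scaffold of the synapse, showed a difference of -0.29 (SE 0.12, adjusted p = 0.302) and was not called.

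None of 29 kept feeding peptides, other hypothalamic peptides and receptors was called with limma. This list is not limited to the arcuate nucleus and includes Oxt, Avp, Hcrt and Pmch. An unadjusted p under 0.05 was reached by 9 members, 1 higher and 8 lower, and by 13.5% of all genes. The list median was -0.10. Npy, which drives feeding and is made in the neurons that would make agouti-related peptide, read 9.76, 9.93, 10.01 and 9.56 on the fed arrays and 10.23, 10.84, 11.09 and 10.50 on the fasted arrays. All fasted arrays lay above all fed arrays, but the change of 0.85 (SE 0.20, adjusted p = 0.069) missed the threshold. Its adjusted p ran from 0.0487 to 0.187 with single arrays left out. Fitted without the AgRP+/- arrays, Npy and Oxt were both called (adjusted p = 0.0173 and 0.0313). Uncalled genes of other lists gained a call in that fit too. Among them were Sgk1, Mt1, Cirbp, Slc38a5 and Dbp (adjusted p = 0.0014, 0.0077, 0.0077, 0.0173 and 0.033). Pomc, the precursor of the satiety peptide alpha-MSH, read 8.34, 8.33, 8.30 and 8.15 in the fed and 8.12, 8.04, 8.28 and 7.98 in the fasted group, and Cartpt, made in the same neurons, read 11.97, 12.12, 12.12 and 12.27 in the fed and 11.98, 11.82, 12.36 and 12.01 in the fasted group. Their groups overlapped, with changes of -0.17 (SE 0.20, adjusted p = 0.774) and -0.08 (SE 0.11, adjusted p = 0.827). Oxt, whose array values stand above, had non-overlapping groups and a change of -0.46 (SE 0.13, adjusted p = 0.132); with the midbrain dopamine mean as a covariate it was -0.09. Tac2, the neurokinin B precursor of arcuate neurons, showed a difference of -0.47 (SE 0.18, adjusted p = 0.282). Crh, Lepr, Insr and Glp1r were among the 7 genes of this list on the array that did not pass the filter, so nothing is read from them.

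**Figure D4:**
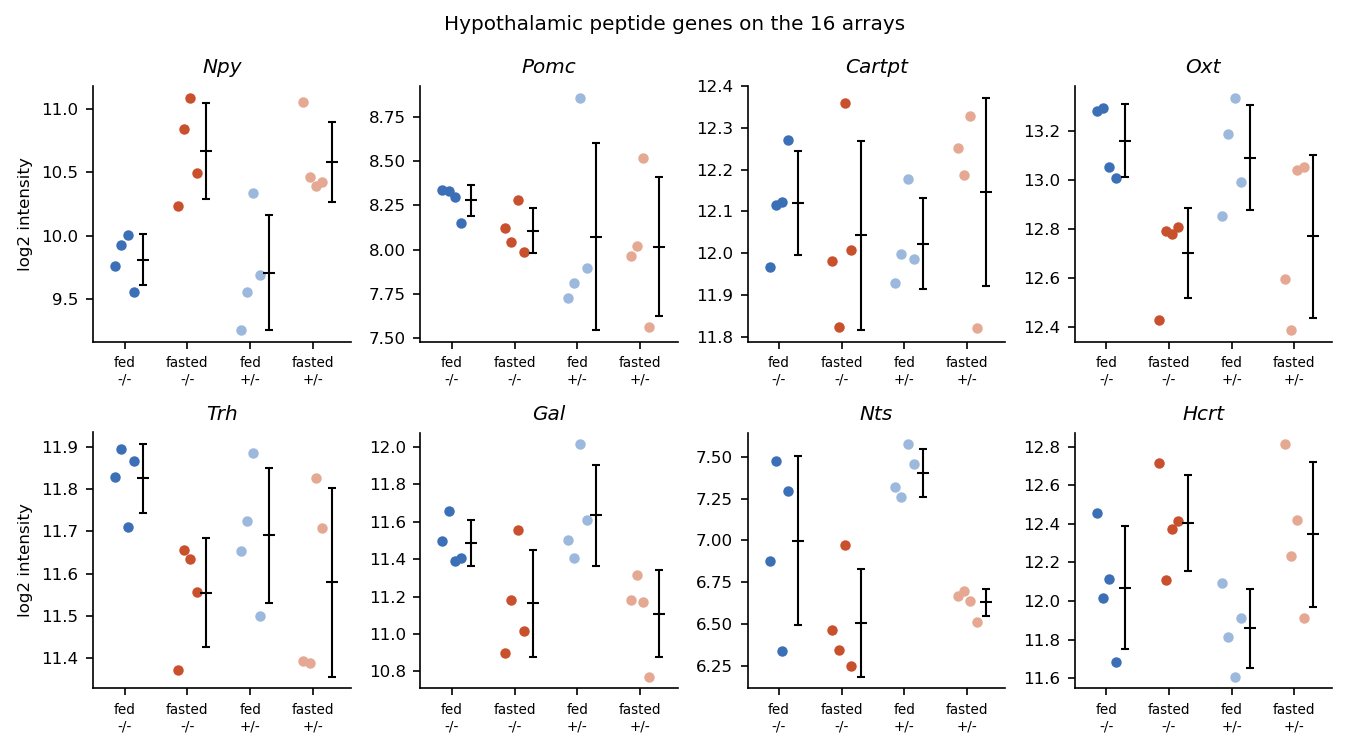
Log2 level of 8 peptide genes on all 16 arrays, grouped by genotype and feeding, with 1 point per array and a black bar for the group mean and SD (n = 4). Npy lies higher on the fasted than on the fed AgRP-/- arrays (10.23 to 11.09 against 9.56 to 10.01), while Pomc and Cartpt overlap.

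RNA binding, cytoskeletal and other genes made up the rest. Rbm3, which binds RNA and is induced by cold, read 10.28, 10.78, 10.60 and 10.65 on the fed arrays and 11.38, 11.53, 11.49 and 11.75 on the fasted arrays. The groups were apart and Rbm3 rose by 0.96 (SE 0.15, adjusted p = 0.00325), 1.95-fold, although another of its kept probes gave -0.47. Cirbp, the other cold-inducible RNA-binding protein on the list, had non-overlapping groups (10.02, 10.09, 9.96 and 9.96 in the fed and 10.41, 10.42, 10.52 and 10.34 in the fasted group) and a change of 0.42 (SE 0.10, adjusted p = 0.0668), not called. Rbm3 was the 1 called gene among 17 of cold and heat shock, where 0.42% of all genes were called, whose median was -0.13. Tra2a, a splicing factor, read 11.64, 11.54, 11.63 and 11.70 in the fed and 11.26, 11.18, 11.17 and 11.36 in the fasted group and fell by 0.38 (SE 0.08, adjusted p = 0.0275). Tubb2b, a tubulin of young neurons, was among the brightest called genes. It read 13.61, 13.59, 13.63 and 13.69 in the fed and 13.33, 13.21, 13.35 and 13.41 in the fasted group with its brightest probe and fell by 0.31 (SE 0.05, adjusted p = 0.00773). This was the only called probe of 5, and the next brightest gave 0.04 (adjusted p = 0.787) and the others -0.06, -0.31 and -0.42. Mapre1, which binds microtubule ends, read 10.95, 10.95, 11.10 and 10.96 in the fed and 10.59, 10.69, 10.65 and 10.52 in the fasted group and fell by 0.38 (SE 0.08, adjusted p = 0.0293). Fed array 3 was the highest array of Mapre1, whose call was lost whichever array was left out.

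Tst, a mitochondrial sulfurtransferase, read 8.67, 8.76, 8.66 and 8.54 on the fed arrays and 8.17, 7.89, 8.11 and 7.99 on the fasted arrays and fell by 0.62 (SE 0.10, adjusted p = 0.00598). Mafg, a small Maf protein that partners Nrf2, read 10.48, 10.20, 10.53 and 10.37 in the fed and 9.87, 9.87, 9.78 and 9.82 in the fasted group. It fell by 0.56 (SE 0.11, adjusted p = 0.0194), and with Tst it made up the 2 calls among 15 kept genes of metallothioneins and oxidative stress, where 0.147% of all genes were called lower. Man2a2, a mannosidase of the Golgi, read 5.20, 5.45, 5.18 and 5.34 in the fed and 6.28, 5.95, 5.97 and 6.21 in the fasted group with its dimmest probe and rose by 0.81 (SE 0.14, adjusted p = 0.00773); its brighter probes gave 0.68 and 0.50, not called. Spsb1 and Kctd5, adaptors of ubiquitin ligases, rose with groups that did not overlap. Spsb1 read 7.11, 7.30, 7.50 and 7.03 in the fed and 8.28, 7.75, 8.04 and 7.96 in the fasted group and rose by 0.77 (SE 0.15, adjusted p = 0.0244), and Kctd5 read 7.91, 8.02, 7.66 and 8.06 in the fed and 8.36, 8.30, 8.34 and 8.47 in the fasted group with its dimmer probe and rose by 0.45 (SE 0.09, adjusted p = 0.0338). The brighter probe of Kctd5 gave 0.34 and was not called (adjusted p = 0.0813). Rpl3l, a ribosomal protein typical of striated muscle, read 5.16, 5.65, 5.12 and 5.14 in the fed and 5.87, 5.81, 6.42 and 6.05 in the fasted group near the low end of the scale and rose by 0.77 (SE 0.16, adjusted p = 0.0413). It was the 1 call among 40 ribosomal protein genes, where 0.42% of all genes were called. It was highest on fasted array 3, where the muscle transcripts Myl2 and Mb also peaked (9.88 and 8.49), and the part of muscle RNA in its rise was not tested. Hoxc4, a homeobox factor of the hindbrain and spinal cord, read 5.43, 5.45, 5.68 and 5.51 in the fed and 4.85, 4.82, 4.70 and 4.99 in the fasted group, also near the low end, and fell by 0.68 (SE 0.14, adjusted p = 0.028). All fasted values of Hoxc4 lay below 5.12, the limit of the filter, so the size of its fall depends on that floor. Ttc33, a tetratricopeptide repeat protein, and Tcf25 were called by their dimmest probes alone. Ttc33 read 6.43, 6.55, 6.60 and 6.70 in the fed and 5.19, 5.50, 5.56 and 5.93 in the fasted group and fell by 1.03 (SE 0.16, adjusted p = 0.00341), and Tcf25 read 6.37, 6.53, 6.40 and 6.22 in the fed and 6.97, 6.93, 7.06 and 7.06 in the fasted group and rose by 0.63 (SE 0.13, adjusted p = 0.034). Brighter probes of Ttc33 gave -0.03 and 0.01, and those of Tcf25 gave 0.07 and 0.16. Leaving out 1 AgRP-/- array removed the calls of Rpl3l, Hoxc4 and Tcf25 in 7 of 8 fits each, those of Tra2a, Mafg and Kctd5 in 6 each and that of Spsb1 in 5. Fitted without the AgRP+/- arrays, Kctd5 and Rpl3l were not called (adjusted p = 0.0668 and 0.0677).

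Several lists held no called gene. All 17 kept genes of cholesterol synthesis had values below 0, with a median of -0.18 and list means per array of 8.61 to 8.67 in fed and 8.35 to 8.52 in fasted mice. None of them was called with limma and 4 had an unadjusted p under 0.05, which 13.5% of all genes had. Msmo1, a sterol oxidase of this pathway, read 10.97, 10.84, 11.10 and 10.84 on the fed arrays and 10.68, 10.70, 10.48 and 10.61 on the fasted arrays; its groups did not overlap, and its change was -0.32 (SE 0.09, adjusted p = 0.131). Sqle, squalene epoxidase, showed a difference of -0.25 (SE 0.08, adjusted p = 0.186), and Dhcr7, which makes cholesterol in the last step, of -0.50 (SE 0.18, adjusted p = 0.244). Of 46 kept genes of oxidative phosphorylation 32 had values below 0 (median -0.07), with no limma call and 8 genes at an unadjusted p under 0.05, a share near the 13.5% of all genes. Over all genes 4915 of 9530 lay below 0.

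No limma call was made among 16 genes of fatty acid synthesis, 14 of endoplasmic reticulum chaperones, 19 of the circadian clock, 17 of FoxO and insulin signalling, 17 of the interferon response and 8 of the acute phase. These lists held 4, 5, 6, 3, 2 and 2 genes at an unadjusted p under 0.05, against 13.5% of all genes. Their medians were -0.05, -0.04, 0.02, 0.15, -0.003 and 0.22. Txnip, a FoxO target that restrains glucose uptake, had non-overlapping groups and a change of 0.68 (SE 0.18, adjusted p = 0.0988). Lrg1, an acute phase glycoprotein of endothelium, showed a difference of 1.11 (SE 0.33, adjusted p = 0.145), and Dbp, a clock output factor, of -0.33 (SE 0.08, adjusted p = 0.0938). Among cell cycle genes Cdkn1a was the 1 call of 16, against 0.42% of all genes. Stmn1, which loosens microtubules, showed a difference of -0.71 (SE 0.17, adjusted p = 0.0752).

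Probes of the same gene mostly moved the same way. Of the 45 genes 18 had several kept probes and 6 had several called. Their 31 other kept probes had the same sign in 26 cases and were called in 8. The 5 probes of opposite sign belonged to Cxcl12, Rbm3, Ttc33 and Tubb2b. Leaving out each AgRP-/- array in turn, 20 of the 45 genes kept their call every time and 25 lost it at least once. All 45 kept their direction in every alternative run. Where an AgRP-/- array was left out this was fixed beforehand, because the fed and fasted arrays of these genes did not overlap. Those runs therefore say nothing about direction. In the fits with a covariate the direction could have turned, and it did not.

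Heterozygous mice showed the same directions. All 45 genes had the same sign in AgRP+/- mice, which was true of 66.9% of all kept probes. Of the 45, 26 were also called there, where 0.754% of kept probes were called. Non-overlapping AgRP+/- arrays in the same direction were found for 28 of the 45 and for 5.08% of kept probes. The change was larger in size in AgRP-/- mice for 35 of the 45, with medians of 0.71 and 0.58; genes picked by their AgRP-/- arrays favour larger values there. Plin4 read 5.78, 5.21, 5.58 and 6.12 on the fed and 9.88, 9.53, 8.13 and 9.05 on the fasted AgRP+/- arrays, a change of 3.48. The difference between the genotypes in its response was -0.20 (95% interval -1.01 to 0.61).

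No probe was called for the interaction of fasting and genotype with limma (smallest adjusted p 0.577), and 371 probes, 2.72%, had an unadjusted p under 0.05. This does not show that the responses were equal. Of the 45 genes 9 had an unadjusted interaction p under 0.05, and Egr1, Ttc33, Rpl3l and Tcf25 had the smallest. Egr1 read 11.41, 11.37, 11.90 and 11.44 on the fed and 11.27, 11.18, 11.50 and 11.79 on the fasted AgRP+/- arrays, which overlap, and showed a difference of -0.10 there. The interaction estimate of Egr1 was -0.62 (95% interval -0.98 to -0.27), with an unadjusted p of 0.00155 and an adjusted p of 0.999. Rpl3l gave 0.14 with fasting in AgRP+/- mice and an interaction estimate of 0.63 (95% interval 0.14 to 1.12), and Egr4 gave -0.20 and -0.68 (95% interval -1.23 to -0.13). Neither was called (adjusted p = 0.999 for both), and since these genes were picked by their AgRP-/- change, the estimates and their intervals favour larger responses in AgRP-/- mice and do not establish a difference between the genotypes. For Npy the difference was -0.02 (95% interval -0.61 to 0.57), with a change of 0.87 in AgRP+/- mice.

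**Figure D5:**
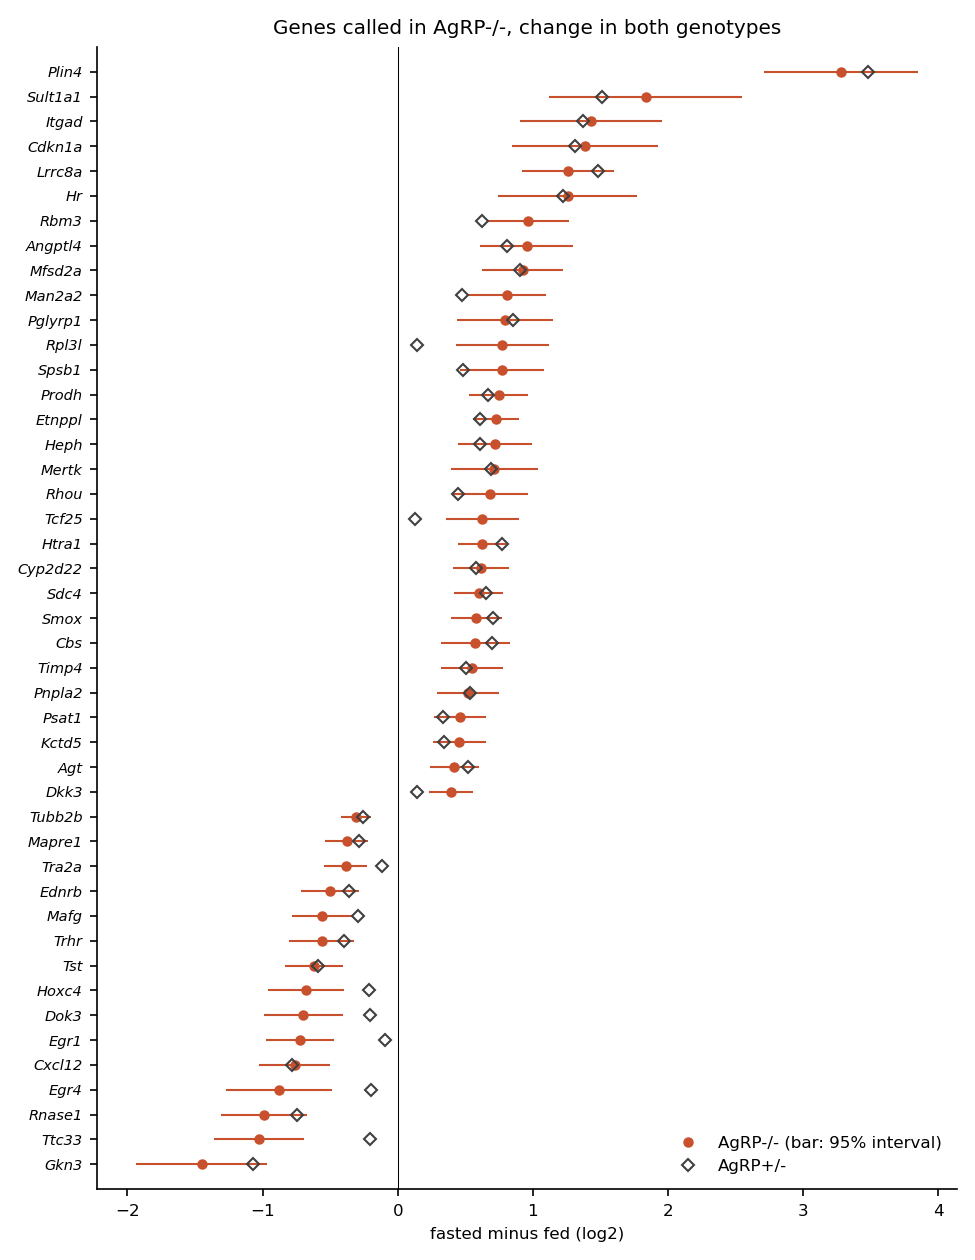
Change with fasting (fasted minus fed, log2) of the 45 called genes in AgRP-/- and AgRP+/- mice, as filled circles with 95% intervals for AgRP-/- and open diamonds for AgRP+/-. All 45 pairs lie on the same side of 0, from Plin4 (3.28 and 3.48) to Gkn3.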

How the data were processed

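Hypothalamic RNA was measured on 16 Illumina bead arrays, and the 8 AgRP-/- arrays are the ones described here. The deposited table holds log2 intensities, 1 column per array. The authors used limma per the submitters' processing notes, which give neither version nor role; the sources used here do not name their background correction or normalization. Sorted columns differed by at most 0.0345, so the distributions had been made nearly equal before deposit, and a shift common to most transcripts cannot be seen. Precision is limited by the number of arrays, and no detection p-values were used here.

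Values were used as deposited. Probes were named from the platform annotation, which can be old: 23978 had 1 symbol, 0 several and 1719 none, and 23962 matched RefSeq by gene ID. A probe was kept if it exceeded 5.12, the overall median, on 4 or more of the 16 arrays. All 16 arrays entered a group-means model in limma 3.58.1 under R 4.3.3 (12 residual degrees of freedom, empirical Bayes with an intensity trend), with Benjamini-Hochberg adjustment over the 13662 kept probes and calls at an adjusted p under 0.05. Changes are fasted minus fed log2 values with the moderated standard error. A gene on a list was read by its brightest kept probe; a called gene by its brightest probe if that was called, otherwise by the called probe with the smallest p. The model was run on simulated arrays with independent noise and known shifts, where recovered calls were required only for the largest shift size. That run does not test the calls reported here.

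Members and lists were chosen with earlier results of these data known. Genes named are the called ones (1 is not reported singly here), Npy, Pomc, Cartpt and a selection from the 4 members of each list with the smallest p. Not all of those 4 are named, and for some lists none is. Others (Sgk1, Fkbp5, Gfap, Lrrc8b, Pmch, Hcrt, Avp, Crh, Lepr, Insr, Glp1r, En1, Foxa2, Pitx3, Actb, Gh, Myl2, Mb, the probe without a symbol and the genes under other observations) were named after their values were seen. Same-numbered fed and fasted arrays had deviations correlating at -0.03, -0.18, 0.06 and 0.22, and different-numbered ones at -0.33 to 0.17. The titles state no pairing, and these correlations cannot exclude one. Alternatives were other filters, normalizations, error models and fits, 2 covariates and each array left out.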

Additional observations from a re-analysis of the deposited data

Results flagged for a closer look

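In groups of 4 arrays, 180 groups of values were examined and 8 had 1 array far from the other 3; chance gives about 1 in 20. Among genes, Htra1 read 10.15 on fed array 4 against 10.02 to 10.03 on the other fed arrays. Mapre1 read 11.10 on fed array 3 against 10.95 to 10.96. Rpl3l read 5.65 on fed array 2 against 5.12 to 5.16. Gh read 6.14 on fed array 1 against 4.47 to 4.69.

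Among list means, fed array 3 stood high for the vessel wall list, at 7.53 against 7.24 to 7.28, and for the mural cell and meninges list, at 8.02 against 7.10 to 7.18. Fed array 2 stood low for the midbrain dopamine list, at 6.88 against 7.46 to 7.58. Fasted array 1 stood low for the circadian clock list, at 8.47 against 8.55 to 8.57.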

How the results depend on the processing

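The 53 probes called for fasting in AgRP-/- mice became 29 without the intensity trend, 143 with array weights, 87 with these groups fitted alone, 83 with the Actb difference and 1 with the midbrain dopamine mean as a covariate, and 27 to 42 with single arrays left out. The lowest counts came without fasted array 2 (27), fed array 4 (30), fasted array 3 (31) and fasted array 1 (35). Replicate numbers as a block gave 90 calls, although the titles do not say that the numbers pair samples. The 103 calls for fasting in AgRP+/- became 30 with these groups alone, 19 with the dopamine mean, 63 with the Actb difference, 41 to 107 with single arrays left out and 45 without the 2 arrays carrying pituitary transcripts. The interaction gave 0 to 1 calls with single arrays left out and 0 with the block. The fit without the 2 arrays was chosen after seeing the data.

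Of 2517 single-gene refits over 116 genes, 2218 kept direction and side of the threshold, 259 lost a call and 33 gained one. Direction turned in 7, all of uncalled genes. With the dopamine mean these were Crhbp (-0.019), Icam1 (-0.032) and Lrrc8d (-0.0050). With the Actb difference they were Hsd11b1 (0.056), Ucn3 (0.041) and Vcam1 (0.024). Without AgRP-/- fed replicate 3 it was Hsd11b1 (0.038; -0.12 to 0.038 over the arrays left out). The causes were not tested.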

Other observations

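Several uncalled genes differed between the group means by more than most called ones, with wide spreads between arrays; they were picked for the size of this difference. Slc6a12 and Slc6a13, transporters of betaine and GABA found in meninges and vessels, read 4.87, 5.76, 8.18 and 5.39 in the fed and 8.92, 9.22, 8.14 and 6.51 in the fasted group and 6.96, 7.53, 9.48 and 7.40 in the fed and 9.82, 10.23, 8.94 and 7.84 in the fasted group. The matrix genes Ogn and Mgp read 5.04, 6.81, 9.09 and 6.96 in the fed and 8.93, 9.39, 7.78 and 6.27 in the fasted group and 8.83, 9.32, 11.37 and 9.20 in the fed and 11.50, 11.57, 10.71 and 9.38 in the fasted group. In all 4 genes fed array 3 stood with the higher fasted arrays, and fasted array 4 with or near the lower fed arrays. The changes were 2.15, 1.37, 1.12 and 1.11, none called.

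Heart and slow muscle genes were high on 1 array. Myl2, a myosin light chain, read 5.24, 6.41, 5.49 and 5.15 in the fed and 7.50, 5.45, 9.88 and 6.72 in the fasted group, and Mb, myoglobin, read 4.90, 5.10, 4.56 and 4.88 in the fed and 6.005, 4.85, 8.49 and 6.09 in the fasted group. Fasted array 3 was the highest for both, and Myl3 and Actc1 peaked on it as well, at 9.37 and 7.49.

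Pdrg1 read 4.45, 8.55, 4.49 and 9.31 in the fed and 8.64, 9.60, 8.73 and 8.58 in the fasted group, with fed arrays 1 and 3 near 4.5 and the other 6 above 8.5, and 1 fasted AgRP+/- array read 4.72. Cyp4a14, a fatty acid hydroxylase induced through PPAR alpha, read 4.40, 4.41, 4.33 and 4.52 in the fed and 4.65, 6.80, 5.41 and 4.99 in the fasted group, highest on fasted array 2, and was not called.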
